A study of Mus musculus with 9 samples.

Results

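The genes described here are 10 transcription factors of cartilage, bone, tendon and mesenchyme: Runx1, Runx2, Runx3, Sp7, Prrx1, Prrx2, Foxc1, Foxc2, Barx1 and Scx. They were chosen by symbol, and every probe set (a group of short oligonucleotides that together read 1 transcript) that the platform annotation supplied gives to 1 of these symbols was taken. 9 of the 10 genes had a probe set, with 22 probe sets in all among the 45101 on the array, where 18193 genes had a value. Runx2 had no probe set in that annotation and was not analysed here.

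RNA was measured on 9 mouse expression arrays of C57BL/6J neurospheres, which are floating balls of dividing stem and progenitor cells, at passage 3, with 3 arrays in each of 3 groups. rNCSC spheres came from dorsal root ganglia (DRG, the sensory ganglia beside the spinal cord, built by the neural crest) of embryonic day 12.5 and grew in 20 ng/ml bFGF and 20 ng/ml EGF. SCSC spheres came from the spinal cord of embryos of that same day and grew in that same medium. BMP NCSC spheres, also from the DRG of such embryos, had 10 ng/ml BMP4, which is a bone morphogenetic protein, added to those factors. No group carried an engineered allele. The labels describe the rNCSC as crest cells turned in culture into cells able to form CNS progeny, the SCSC as a uniform Olig2+ CNS stem cell population, and the BMP NCSC as cells that stay peripheral and include mesenchymal stem cells. Nothing in the labels tells if replicate arrays stem from different embryos or cultures, and the p-values therefore speak only of array-to-array spread, which may be technical.

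Members of the RUNX family bind DNA with the partner Cbfb and set cell fates in blood, bone, cartilage and sensory neurons, and Sp7 (osterix) acts after Runx2 in bone formation. Prrx1 and Prrx2 are homeobox factors of limb and face mesenchyme, Barx1 is a homeobox factor of facial and stomach mesenchyme, Foxc1 and Foxc2 are forkhead factors of somites, skull, meninges and cartilage, and Scx is the bHLH factor of tendon progenitors. In the embryo, cranial neural crest forms skeleton and mesenchyme, while trunk crest, which builds the DRG, normally forms neurons, glia and pigment cells. BMP signals act through Smad proteins and can drive several of these genes.

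Values are log2 expression values, 1 per probe set, and where a gene had several probe sets, the one whose mean across all arrays was highest stood for it. A gene was tested when it reached 5 on at least 3 arrays, and called different when limma gave an adjusted p under 0.05 and a difference of at least 1 on the log2 scale. 10319 genes were tested. Array medians lay between 3.99 and 4.03, and 38.7% to 39.9% of probe sets reached 5. The rNCSC array of replicate 3 differed from its group in several of the genes described here. For the members, differences that rest on it are given with and without it. Over all probe sets its mean correlation to the other rNCSC arrays was 0.988, against 0.992 and 0.99 for the other 2. All 10 CNS progenitor markers examined reached 5 on every rNCSC and SCSC array, and 2 of them did on each BMP NCSC array. Of 8 crest and peripheral glia markers with a value, 6 reached 5 on each BMP NCSC array, and 2 or 3 on each rNCSC and SCSC array. Of 14 sensory neuron genes, 1 to 3 reached 5 on any array. None of 15 blood and endothelial markers and none of 10 skeletal muscle markers reached 5 on any array, with mean values of 2.95 to 3.18 and of 2.91 to 3.2. Of 16 meningeal and mural cell markers, 9 reached 5 on each BMP NCSC array and 2 on each other array. The mean of that list was 7.52 to 7.94 in BMP NCSC and 3.11 to 3.34 in the other groups, and its part in the results was not tested. The probe sets for the 3′ end of beta-actin exceeded those for its 5′ end by 1.03 to 1.14 in BMP NCSC and by 0.84 to 0.88 elsewhere, a measure of RNA integrity whose part in the results was not tested.

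4 members, Runx1, Prrx1, Prrx2 and Foxc1, were called higher in BMP NCSC than in rNCSC, and these 4 were also called higher there than in SCSC. Among all genes tested, 22.6% were lower in rNCSC than in BMP NCSC and 22.9% were lower in SCSC than in BMP NCSC. The other 5 measured members, Runx3, Sp7, Foxc2, Barx1 and Scx, stayed under the filter. Runx1 and Prrx2 could pass the filter only with the BMP NCSC arrays, so their direction was fixed by it, and the count of 4 is a description. Both comparisons use the same 3 BMP NCSC arrays. Counted by probe set, 11 of the 22 were tested, and 7 of these could pass only with the BMP NCSC arrays. All 11 were lower in rNCSC and in SCSC than in BMP NCSC, which for those 7 the filter had fixed. Over all probe sets tested the shares were 20.6% and 21.3%. In these bulk samples, fewer cells of a type and less RNA per cell cannot be told apart.

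**Figure D1:**
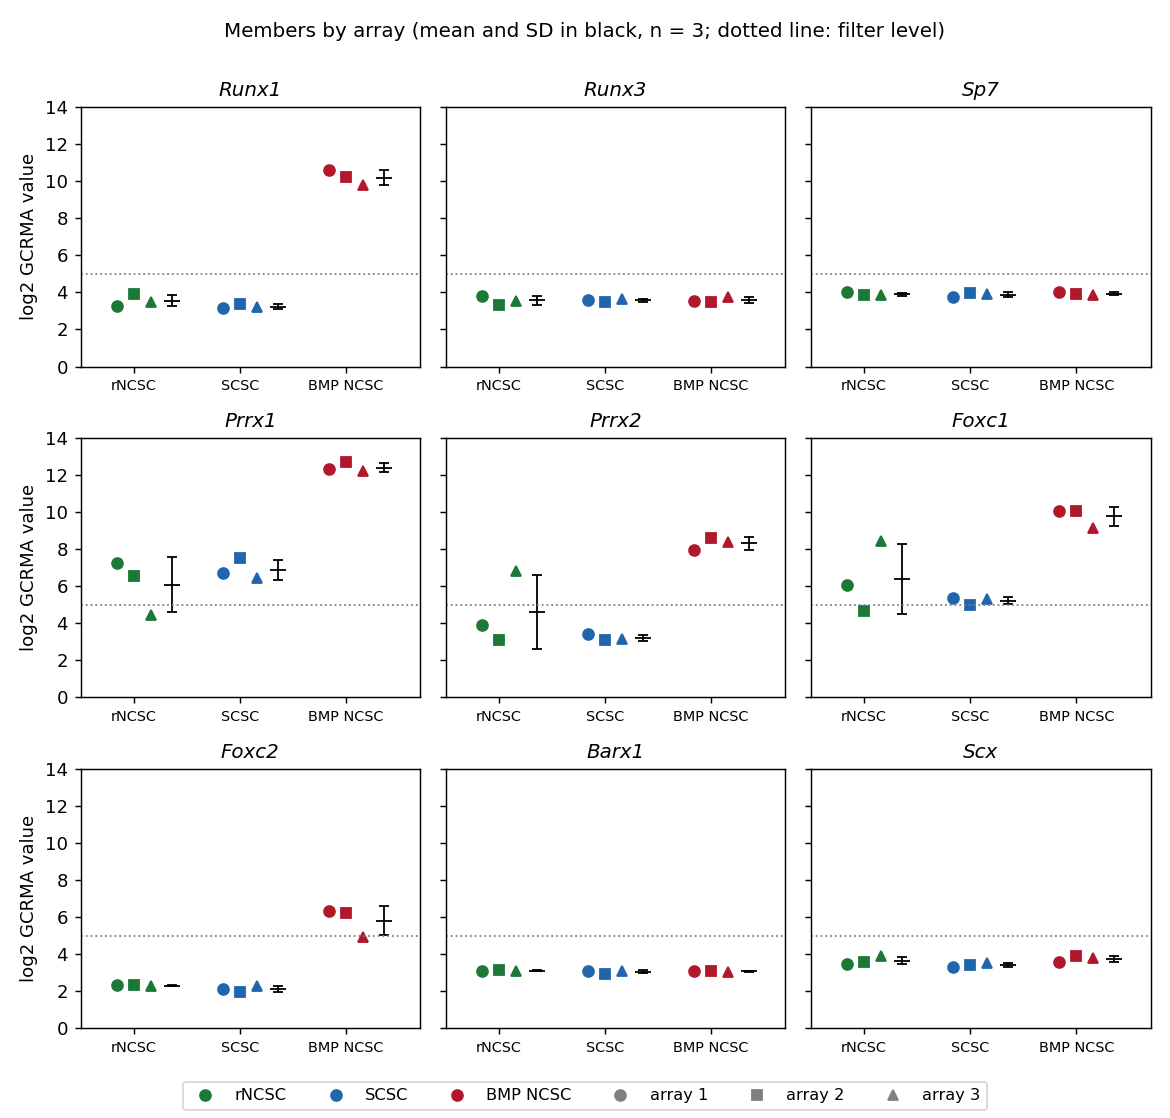
Log2 expression value (vertical axis) of the 9 measured members on each array, with 1 panel per gene, colours for the groups, marker shapes for the replicate numbers, and the mean with its SD (n = 3) in black beside each group. The dotted line at 5 is the filter level: Runx1, Prrx1, Prrx2 and Foxc1 lay highest in BMP NCSC, Foxc2 passed 5 on 2 BMP NCSC arrays, and Runx3, Sp7, Barx1 and Scx lay under 5 on every array.

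Runx1 is a RUNX factor best known from blood stem cells and also active in early cartilage and in DRG sensory neurons. It was near the floor of the array in both groups without BMP4 and high in BMP NCSC. Its values were 10.6, 10.21 and 9.79 on the BMP NCSC arrays, 3.28, 3.89 and 3.51 on the rNCSC arrays, and 3.14, 3.37 and 3.21 on the SCSC arrays. All 3 BMP NCSC arrays were high, all 6 others were low, and the groups without BMP4 overlapped each other. The mean was 10.2 ± 0.41 (SD, n = 3) in BMP NCSC, 3.56 ± 0.31 in rNCSC and 3.24 ± 0.12 in SCSC. By limma, the difference of rNCSC from BMP NCSC was -6.64 (SE 0.22, adjusted p = 2.5e-08), and that of SCSC from BMP NCSC was -6.96 (SE 0.22, adjusted p = 1.8e-08). Runx1 passed the filter only through the BMP NCSC arrays, which fixed the direction of both differences. Means under 4 lie in the range where the values no longer track level well, so the size of such a difference is uncertain.

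Runx1 has 6 probe sets, and they did not behave alike. The second probe set gave 8.89, 7.91 and 7.95 in BMP NCSC and 2.71 to 2.99 on the other 6 arrays. A further one gave 8.1, 7.69 and 6.93 in BMP NCSC and 2.49 to 2.79 elsewhere. These 2 followed the pattern of the probe set that stands for the gene, with high BMP NCSC arrays and no overlap. The remaining 3 probe sets stayed under 5 on all arrays, with highest values of 3.9, 4.27 and 4.07. With no filter, limma on all probe sets gave the second and the last of these small differences of rNCSC from BMP NCSC, -0.63 (adjusted p = 0.0011) and -0.72 (adjusted p = 0.00055), under the size limit of 1.

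RefSeq lists 2 starts for Runx1 on assembly GRCm38.p6, both on the minus strand of chromosome 16, and the array values do not tell which one was used. The 250 bases before each start are shown because the windows differ in base composition, with CG dinucleotides in capitals. The window chr16:92826075-92826324 had 45.6% G and C and 2 CG dinucleotides, and the window chr16:92697330-92697579 had 67.6% and 27. Over 32851 RefSeq windows of this length the medians were 52.4% and 6.
Runx1 window 1: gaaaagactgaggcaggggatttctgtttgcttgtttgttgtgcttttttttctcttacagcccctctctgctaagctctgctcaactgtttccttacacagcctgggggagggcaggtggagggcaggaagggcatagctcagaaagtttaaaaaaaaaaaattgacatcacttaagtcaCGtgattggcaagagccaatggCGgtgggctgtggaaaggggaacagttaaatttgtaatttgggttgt
Runx1 window 2: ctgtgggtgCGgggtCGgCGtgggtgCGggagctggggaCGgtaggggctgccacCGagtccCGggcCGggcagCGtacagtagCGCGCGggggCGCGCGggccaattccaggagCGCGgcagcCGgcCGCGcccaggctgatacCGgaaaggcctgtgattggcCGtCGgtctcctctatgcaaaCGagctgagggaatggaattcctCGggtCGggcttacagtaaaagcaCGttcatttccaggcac
Neither window held any of the 5 motifs searched on both strands, which were the RUNX core TGTGGT, the homeodomain core TAATTA, the forkhead core TAAACA, the GC-rich Smad element GGCGCC and the E-box CAGCTG. These occurred in 14%, 4.84%, 12%, 9.59% and 13% of the 32851 windows.

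Runx3, the RUNX factor of proprioceptive sensory neurons and of cartilage maturation, stayed low in every group. One of its probe sets lay between 3.31 and 3.83 over the 9 arrays, and the other lay between 2.29 and 2.8. Sp7, which bone-forming cells need, lay between 3.75 and 4.02. Both genes overlapped among all 3 groups, and neither was tested because no array reached 5. A value this low does not show that a gene was silent.

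Prrx1, the homeobox factor of limb and face mesenchyme, was well above the floor without BMP4 and higher still with it. Its values were 12.35, 12.69 and 12.21 in BMP NCSC, 7.26, 6.54 and 4.46 in rNCSC, and 6.7, 7.51 and 6.44 in SCSC. The BMP NCSC arrays did not overlap the others, the rNCSC and SCSC arrays overlapped, and the rNCSC array of replicate 3 was the lowest of all. Means were 12.41 ± 0.25 (SD, n = 3) in BMP NCSC, 6.09 ± 1.5 in rNCSC and 6.88 ± 0.56 in SCSC. By limma, rNCSC differed from BMP NCSC by -6.33 (SE 0.63, adjusted p = 2.1e-05), by -5.51 (adjusted p = 2.6e-06) without that array, and by -6.92 (adjusted p = 2.4e-05) without the array of replicate 1. SCSC differed from BMP NCSC by -5.53 (SE 0.63, adjusted p = 4.7e-05).

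Of the 6 Prrx1 probe sets, 5 were tested and lower without BMP4, and the last stayed under 5, with a highest value of 2.46. Beside the representative, a probe set gave 11.39, 11.55 and 11.27 in BMP NCSC, 6.55, 5.62 and 3.98 in rNCSC, and 5.33, 6.1 and 5.46 in SCSC. Another gave 10.72, 11.12 and 10.24 in BMP NCSC, 5.35, 4.57 and 3.84 in rNCSC, and 4.9, 5.5 and 4.49 in SCSC. In both, as in the representative, the rNCSC array of replicate 3 was the lowest of the 9. The other 2 tested lay between 5.63 and 6.86 in BMP NCSC and between 2.72 and 3.33 elsewhere. The RefSeq window before the Prrx1 start held 1 homeodomain core TAATTA, 173 bases before the start.

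**Figure D2:**
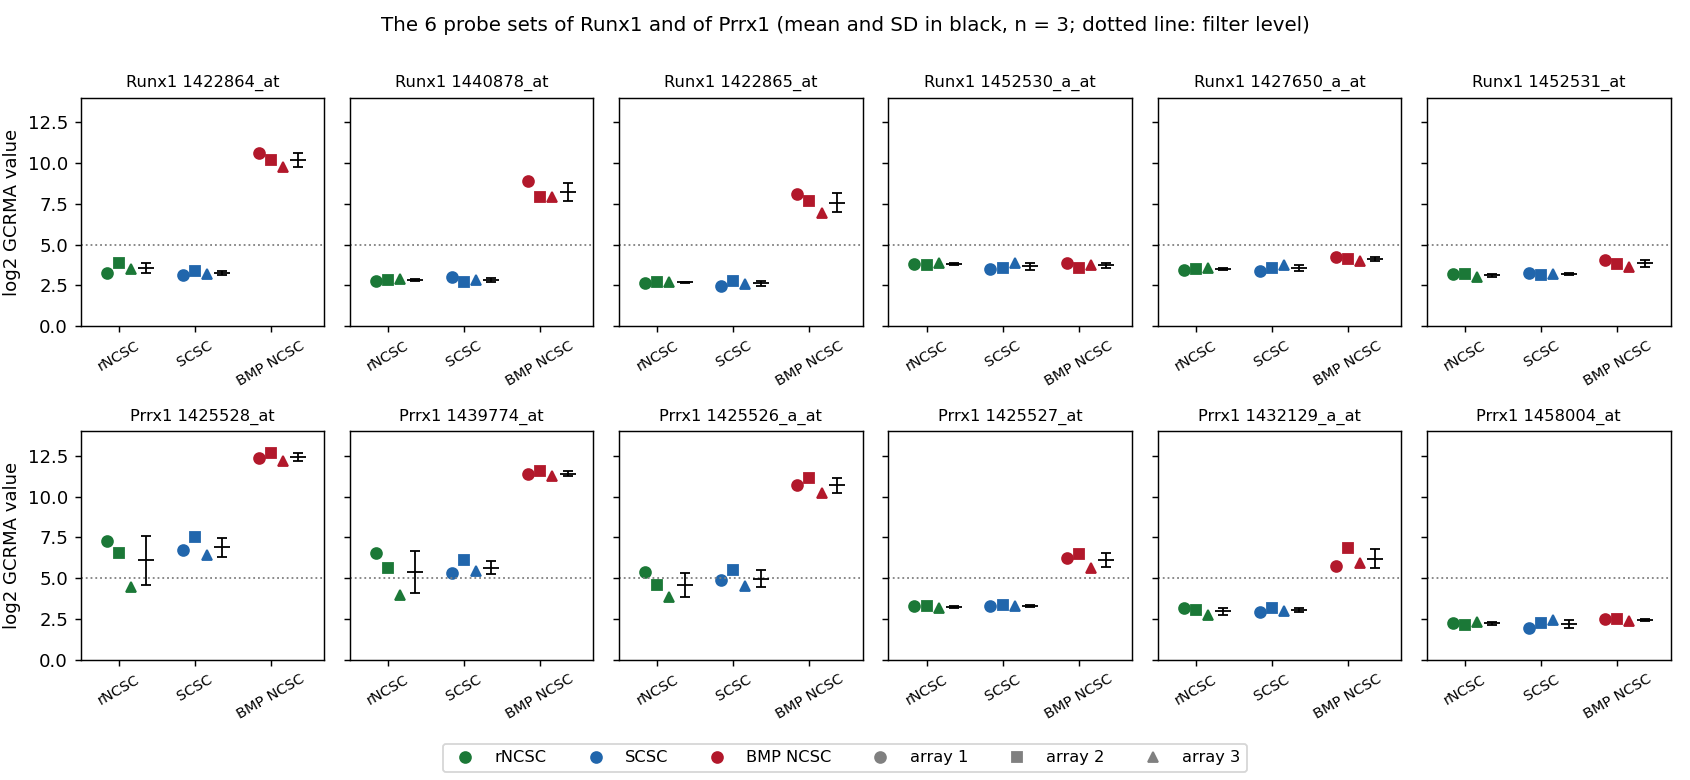
Log2 expression value (vertical axis) of the 6 probe sets of Runx1 (top row) and the 6 of Prrx1 (bottom row) on each array, with colours for the groups, marker shapes for the replicate numbers and the mean with its SD (n = 3) in black. Of the Runx1 probe sets 3 lay over the filter level of 5 (dotted line) in BMP NCSC and 3 lay under it on every array, and of the Prrx1 probe sets 5 were over it in BMP NCSC.

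Prrx2, the close relative of Prrx1, had 1 probe set. Its values were 7.93, 8.63 and 8.37 in BMP NCSC, 3.9, 3.07 and 6.84 in rNCSC, and 3.41, 3.07 and 3.14 in SCSC. The BMP NCSC arrays were the highest 3, and the rNCSC array of replicate 3 lay between them and the other 5. Means were 8.31 ± 0.35 (SD, n = 3) in BMP NCSC, 4.6 ± 2 in rNCSC and 3.21 ± 0.18 in SCSC. By limma, rNCSC differed from BMP NCSC by -3.7 (SE 0.81, 95% interval -5.55 to -1.85, adjusted p = 0.0027), by -4.82 (adjusted p = 1.8e-06) without the array of replicate 3, and by -2.94 (adjusted p = 0.007) without that of replicate 2. SCSC differed from BMP NCSC by -5.1 (SE 0.81, adjusted p = 0.00038). Prrx2 could pass the filter only with the BMP NCSC arrays, which fixed the direction of these differences. Barx1, the remaining homeobox member, lay between 2.95 and 3.15 on all 9 arrays, with the groups overlapping.

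Foxc1, the forkhead factor of skull, meninges and eye, was above the floor in all groups. Its values were 10.09, 10.04 and 9.17 in BMP NCSC, 6.04, 4.65 and 8.45 in rNCSC, and 5.36, 4.99 and 5.3 in SCSC. The BMP NCSC arrays were the highest 3, the SCSC arrays lay close together, and the rNCSC arrays were spread from below all SCSC arrays to just below BMP NCSC. Means were 9.77 ± 0.52 (SD, n = 3) in BMP NCSC, 6.38 ± 1.9 in rNCSC and 5.22 ± 0.2 in SCSC. By limma, rNCSC differed from BMP NCSC by -3.39 (SE 0.8, 95% interval -5.22 to -1.55, adjusted p = 0.0042), by -4.42 (adjusted p = 3.1e-05) without the array of replicate 3, and by -2.52 (adjusted p = 0.0076) without that of replicate 2. SCSC differed from BMP NCSC by -4.55 (SE 0.8, adjusted p = 0.00073). The other Foxc1 probe set gave 9.5, 9.34 and 8.83 in BMP NCSC, 6.36, 4.47 and 8.15 in rNCSC, and 5.13, 5.04 and 5.02 in SCSC. Both probe sets placed the rNCSC arrays in the same order.

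The Foxc1 window is shown because, of the windows of the 4 called members, it alone held the RUNX core and the Smad element, marked in capitals. In RefSeq on GRCm38.p6 it is chr13:31806396-31806645 on the plus strand, ending at the base before the start, with 70.8% G and C and 29 CG dinucleotides.
Foxc1 window: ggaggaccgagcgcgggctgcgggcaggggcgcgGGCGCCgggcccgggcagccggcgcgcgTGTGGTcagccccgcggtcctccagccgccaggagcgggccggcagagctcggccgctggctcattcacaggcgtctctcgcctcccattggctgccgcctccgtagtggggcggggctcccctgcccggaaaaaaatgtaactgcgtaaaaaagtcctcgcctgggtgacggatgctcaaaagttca
GGCGCC lay 216 and TGTGGT 188 bases before the start, and a match of letters is a description, not a site of binding.

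Foxc2, the relative of Foxc1 that also acts in lymphatic vessels, was just outside the filter. Its values were 6.31, 6.2 and 4.92 in BMP NCSC, 2.32, 2.31 and 2.27 in rNCSC, and 2.1, 1.95 and 2.25 in SCSC. All BMP NCSC arrays were above all others, but only 2 arrays reached 5, so it was not tested. When limma was run on all genes with no filter, rNCSC differed from BMP NCSC by -3.51 (adjusted p = 1.4e-05) and SCSC from BMP NCSC by -3.72 (adjusted p = 8.9e-06).

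Scx, the tendon progenitor factor, stayed under 5 in every group. The probe set that stands for it lay between 3.31 and 3.88. The other gave 4.27, 4.25 and 3.93 in BMP NCSC, 3.06, 3.06 and 3.92 in rNCSC, and 3.11, 3.25 and 3.36 in SCSC. With no filter, limma on all probe sets gave the latter a difference of -0.8 (adjusted p = 0.015) for rNCSC and of -0.91 (adjusted p = 0.0076) for SCSC from BMP NCSC, both under the size limit of 1.

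No member was called between rNCSC and SCSC, the comparison of DRG with spinal cord spheres in 1 medium. By limma, 0.00969% of all genes tested (1 gene) were called there. An unadjusted p under 0.05 was found for none of the 4 tested members and for 1413 genes. Runx1 differed by 0.32 (95% interval -0.18 to 0.82), Prrx1 by -0.79 (-2.24 to 0.65), Prrx2 by 1.39 (-0.46 to 3.25) and Foxc1 by 1.16 (-0.67 to 3). The adjusted p of these, by limma, were 0.56, 0.62, 0.48 and 0.56. The intervals of Prrx1, Prrx2 and Foxc1 hold differences well over 1, so likeness of the groups is not shown for them. Without the rNCSC array of replicate 3 the differences were 0.02 for Prrx1, 0.28 for Prrx2 and 0.13 for Foxc1, and 0 members were called.

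**Figure D3:**
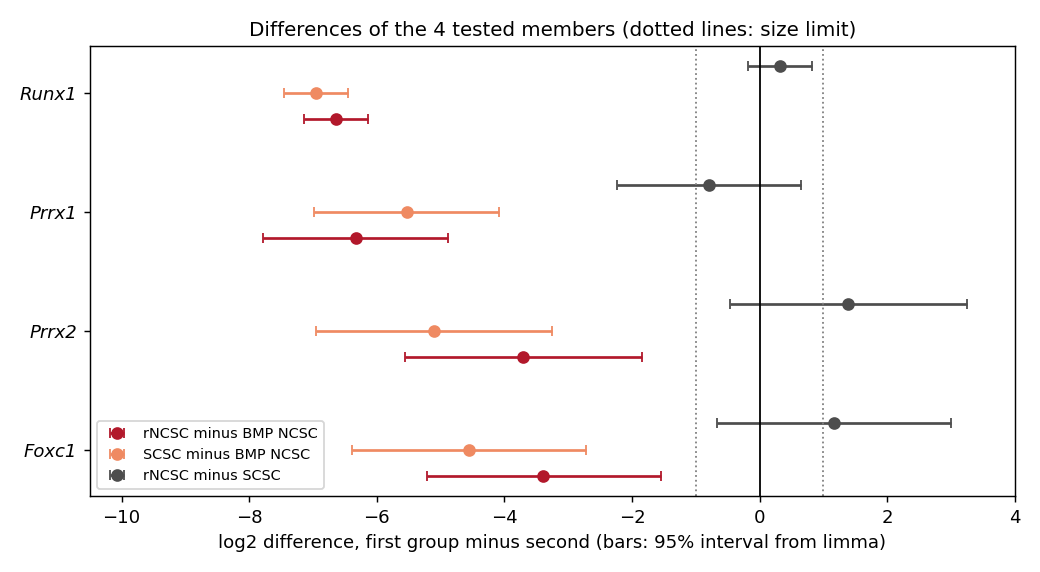
Log2 difference (horizontal axis) of the 4 tested members in the 3 comparisons, as first group minus second, with 95% intervals from limma as bars and dotted lines at the size limit of 1. The intervals for rNCSC and SCSC against BMP NCSC lie below -1 for every gene, and those for rNCSC against SCSC span 0.

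The members also differed in their spread among the rNCSC arrays. Over its 3 rNCSC arrays Foxc1 spanned 3.8, Prrx2 3.77 and Prrx1 2.81, against 0.61 for Runx1. In SCSC the same 4 genes spanned 0.37, 0.34, 1.07 and 0.23. Among the 10319 genes tested, 267 (2.59%) had an SD over 1 in rNCSC, 19 in SCSC and 150 in BMP NCSC.

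On the rNCSC array of replicate 3, Foxc1 and Prrx2 were at least 1 above both other rNCSC arrays and above every SCSC array, and 2 further transcription factors of the lists examined did the same. Twist1, a bHLH factor of head mesenchyme that inhibits RUNX proteins, gave 2.64, 2.75 and 5.48 in rNCSC, 2.48 to 2.75 in SCSC and 6.73 to 7.15 in BMP NCSC. Meox2, a homeobox factor of somite mesenchyme and muscle, gave 2.39, 3.47 and 9.73 in rNCSC and at most 4.43 on the other 6 arrays. So Meox2 was high on that 1 array alone, and it was not tested because no other array reached 5. These 4 were 8.7% of the 46 factors with a value, and 220 of 18193 genes (1.21%) met the same condition. The factors were chosen with earlier results of these data known, so the shares are a description and do not show an excess. Prrx1 was the 1 factor that lay at least 1 below both other rNCSC arrays there, as 135 of all genes did. Of 18 chondrocyte genes, 2 were at least 1 above both other rNCSC arrays there. These were the collagens Col9a3 (10.68 against 7.21 and 7.37) and Col9a1 (5.51 against 4.27 and 3.95), while Col2a1 gave 3.23 against 3.23 and 3.07. Col9a3 and Col9a1 were also at least 1 above every SCSC array (at most 8.02 and 4.07), the condition that 1.21% of all genes met. Of 10 CNS progenitor markers, 2 were at least 1 below both, Hes5 (6.3 against 8.69 and 8.73) and Prom1 (6.81 against 8.37 and 8.6), as were 135 of the 18193 genes. These lists were also chosen with earlier results known, so their counts are a description too. The mean of the meningeal and mural list was 3.34 on that array against 3.19 and 3.22. Its member Slc6a13 was at least 1 above both other rNCSC arrays (4.15 against 2.68 and 2.59), though under the filter level. What sets that array apart was not tested.

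**Figure D4:**
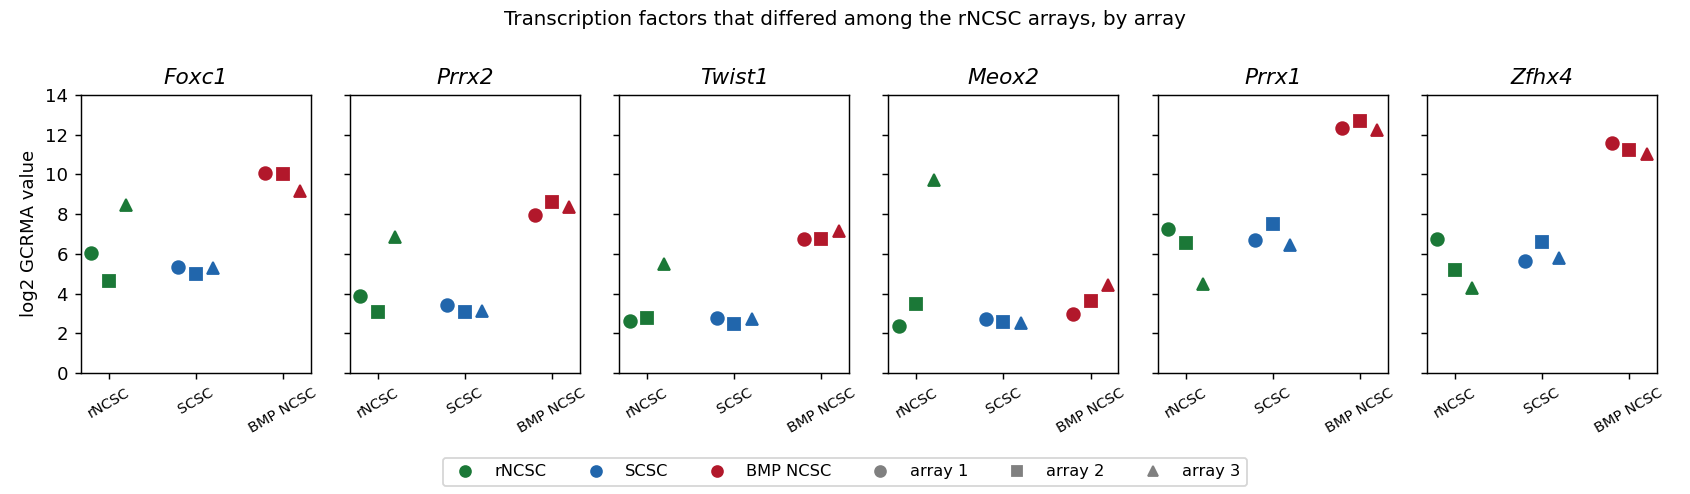
Log2 expression value (vertical axis) of 6 transcription factors on each array, with colours for the groups and marker shapes for the replicate numbers. In rNCSC, the triangle (replicate 3) lies above the other 2 arrays for Foxc1, Prrx2, Twist1 and Meox2 and below them for Prrx1 and Zfhx4.

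The cofactors and inhibitors of RUNX proteins were divided in direction. Of 13 tested, BMP NCSC was exceeded by rNCSC for 2 and by SCSC for 3, where 21.3% and 24% of all genes tested were higher. It exceeded rNCSC for 3 (Tle1, Wwtr1 and Twist1) and SCSC for 4 (these and Yap1), where 22.6% and 22.9% of all genes tested were lower. Twist1, which is also counted in the next list, differed by -3.26 in rNCSC and -4.23 in SCSC. It could pass the filter only with the BMP NCSC arrays, which fixed its direction. Its rNCSC values were 2.64, 2.75 and 5.48, and its difference without the array of replicate 3 was not computed. The median difference was 0.29 in rNCSC and 0.33 in SCSC, against 0.07 and 0.1 over all genes tested. Cbfb, the obligate DNA-binding partner, had means of 11.62 ± 0.15 (SD, n = 3) in BMP NCSC, 11.91 ± 0.098 in rNCSC and 12.07 ± 0.14 in SCSC, and was called in neither comparison. Tle5 and Smad5 were higher without BMP4, by 1.57 and 1.56 in rNCSC. Tle1, a co-repressor of the Groucho family, was lower by a difference of -1.94 in rNCSC and -2.45 in SCSC, and Wwtr1 (TAZ) by -1.62 and -1.82.

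Of 37 other mesenchymal transcription factors with a value, 16 were tested. Against BMP NCSC, 2 were higher and 9 lower in rNCSC, with a median difference of -2.02, and in SCSC 2 were higher and 9 lower, with a median of -2.31. Over all genes tested, 21.3% were higher and 22.6% lower in rNCSC, and 24% were higher and 22.9% lower in SCSC. Snai2, a factor of crest emigration, differed by -8.46 in rNCSC, Alx1, a face cartilage factor, by -8.26, and Foxf1, a mesenchymal forkhead factor, by -6.89. Zeb1, which represses epithelial genes, moved the opposite way, with means of 12.06 ± 0.092 (SD, n = 3) in rNCSC and 7.98 ± 0.2 in BMP NCSC. Sox9, the master factor of cartilage, had means of 7.96 ± 0.24 in BMP NCSC, 8.73 ± 0.45 in rNCSC and 8.92 ± 0.074 in SCSC. By limma it was higher by 0.77 in rNCSC (adjusted p = 0.01) and by 0.96 in SCSC (adjusted p = 0.0031). Both differences were under the size limit of 1, so Sox9 was not called. Many of the tested genes in this list and the next ones were under 4 without BMP4, so the filter fixed their direction. For Tbx18, 1 of the 2 higher factors, the filter fixed it the other way, with 2.79 to 3.36 in BMP NCSC.

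The products made by the tissues that these factors build were examined tissue by tissue. Over all genes tested, 22.6% were lower in rNCSC and 22.9% in SCSC than in BMP NCSC, and 21.3% and 24% were higher. Of 18 chondrocyte genes 10 were tested, and all 10 were lower in rNCSC and in SCSC than in BMP NCSC, with medians of -7.47 and -7.83. Only Col9a3 and Col11a1 of these reached 5 on at least 3 arrays outside BMP NCSC, so the filter fixed the direction of the others. The cartilage collagen Col2a1 differed by -11 in rNCSC, with means of 14.17 ± 0.12 (SD, n = 3) in BMP NCSC and 3.18 ± 0.09 in rNCSC, and the proteoglycan core Acan by -9.21. Of 15 bone genes with a value 6 were tested, with 1 higher and 5 lower in each comparison and medians of -4.53 and -4.57. The 5 lower ones included Dmp1, a matrix protein of osteocytes and teeth, which differed by -8.91 in rNCSC, and Postn, a protein of periosteum and other connective tissue, by -8.94. Alpl, the alkaline phosphatase of bone mineralisation, was the 1 higher gene, by 1.6 in rNCSC and 1.77 in SCSC. With 3.68 to 3.94 in BMP NCSC, it could pass the filter only with the arrays without BMP4, which fixed its direction. Ibsp, the bone sialoprotein that osteoblasts secrete, stayed between 3.19 and 3.66 on all arrays, and Col1a1 reached at most 4.78. Mmp13, a collagenase of late cartilage and bone, was high on 1 BMP NCSC array, with 3.7, 3.05 and 9.71 there and at most 1.95 elsewhere. Of 15 tendon genes 12 were tested, with 1 higher and 9 lower in each comparison and medians of -4.7 and -4.43. Col14a1 and Fmod, matrix genes of tendon, differed by -9.76 and -8.78 in rNCSC, while Tnc, also made by neural stem cells, was higher by 7.4, and Tnmd, a late product of tendon, lay at or under 2.79 on all arrays. Between rNCSC and SCSC, limma called 0 genes of these lists.

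The genes whose profiles over the 9 arrays were most like each tested member's were found by the root mean square difference between profiles, each centred on its own mean. The profile of Runx1 was nearest to Mmp14 (0.2), Has2 (0.238) and Foxf1 (0.275), all near the floor without BMP4 or little above it. Prrx1 was nearest to Zfhx4 (0.394), Cav1 (0.534) and Bmper (0.563). Zfhx4, a large zinc finger homeobox factor, gave 6.77, 5.2 and 4.29 in rNCSC, 5.65, 6.61 and 5.79 in SCSC and 11.57, 11.23 and 11.01 in BMP NCSC. Like Prrx1, it was lowest on the rNCSC array of replicate 3. Prrx2 was nearest to Nrk (0.324), Foxc1 (0.425) and Twist1 (0.482), and Foxc1 to Prrx2 (0.425), Hoxc4 (0.446) and Vegfc (0.447). All of these last genes were highest in BMP NCSC and, within rNCSC, on the array of replicate 3. The likeness is a description over 9 arrays that fall into groups.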

How the data were processed

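The 9 arrays were grouped and numbered by their titles. The authors deposited log2 values, 1 per probe set. The submitters' processing notes name GCRMA, and its version and the annotation build are not given in the sources used here. This method estimates background from the probes' sequences and pulls low values together, so small differences near the floor are hard to read. Of 45101 probe sets, 34945 had 1 symbol in the platform annotation supplied, 932 had several, 64 were controls and 9160 were unlisted and stay unnamed. The values were used with no further normalization. limma 3.58.1 in R 4.3.3 fitted 1 mean per group over all 9 arrays (6 residual degrees of freedom) with Benjamini-Hochberg adjustment over the 10319 genes, or over the 19914 probe sets, that reached 5 on at least 3 arrays. The fit was tested on simulated data. The members and lists were chosen with earlier results of these data known. Every member was named, with up to 4 genes of smallest p per list and comparison and the 3 genes most like each tested member. Ibsp, Col1a1, Mmp13, Tnmd, Sox9, Cbfb, Col9a1, Col9a3, Hes5, Prom1, Twist1, Meox2, Alpl, Tnc and others outside that rule were chosen after their values were seen. Promoter windows are from RefSeq tables of GRCm38.p6, which listed 9 windows for 7 of the members, Runx2 among them. The alternatives tried are given at the end. The number of arrays limits the precision.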

Additional observations from a re-analysis of the deposited data

How the results depend on the processing

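Each of the 12 differences of the 4 tested members was recomputed under 18 alternatives, namely no filter, the most variable probe set, only the groups compared, quantile normalization, trended and robust moderation, a replicate block, no size limit, a filter at 6, array weights and leaving out each array in turn. All 216 values kept their side of the thresholds. Many alternatives left each difference the same and could change only its p, so the 216 values are not separate checks. These were no filter, the filter at 6, the most variable probe set, only the groups compared, trended and robust moderation, and the replicate block. Leaving out an array of the group not compared did likewise. Dropping the size limit changes neither a difference nor its p. The difference of Prrx1 between rNCSC and SCSC, which was not called, went from -0.79 to 0.02 without rNCSC replicate 3. Array weights were chosen after the data were seen. Both ends of the following ranges of differences come from leaving out an rNCSC array. That array was replicate 3 for the larger size and replicate 2 for the smaller. The highest adjusted p came from neither, and for both genes it was found without rNCSC replicate 1. The difference from BMP NCSC ran for Foxc1 from -4.42 to -2.52 in rNCSC (adjusted p 3.1e-05 to 0.016 by limma), and for Prrx2 from -4.82 to -2.94 (1.8e-06 to 0.012). Members called numbered 4 against each of rNCSC and SCSC, or 5 with no filter, which adds Foxc2, and 0 between rNCSC and SCSC under each alternative, fitting all probe sets included. The titles give only a number, so same-numbered arrays were not taken as pairs. Same-numbered arrays of different groups had correlations of their deviations from 0.04 to 0.3. In 16 of 18 checks an array correlated best with its own number. The labels do not tell if the numbers mark a shared day or batch, which was not tested. With the replicate block, limma called 4533 genes between rNCSC and BMP NCSC (4532 without), 4841 between SCSC and BMP NCSC (4839 without) and 0 between rNCSC and SCSC (1 without), and the members called stayed at 4, 4 and 0. The arrays hold no read depth, and the filter left members under 5 untested in the reported fit.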
